A study of Rattus norvegicus with 10 samples.

Results

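The receptors described here sit on the surface of islet cells and set how much hormone those cells release. They are G protein-coupled receptors, and 10 genes were chosen by symbol: Glp1r, Gipr, Gcgr, Ffar1, Gpr119, Adra2a, Chrm3, Sstr2, Sstr3 and Galr1. A gene entered if the array held at least 1 probeset (a set of probes read as 1 value) annotated with that symbol alone. This gave 11 probesets for 8 genes, out of 31042 non-control probesets and 14217 named genes. No probeset carried the symbol Ffar1 or Gpr119 alone, so both genes are not analysed here.

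Islets were taken from adult male Wistar rats that were 7 weeks old and caged singly, after 10 days on 1 of 2 diets. Standard chow supplied 8% of its calories as fat and the cafeteria diet 66%. Islets were isolated by collagenase perfusion, a Histopaque gradient and picking under a microscope, and the RNA of independent samples was read on 5 Affymetrix Rat Genome 230 2.0 arrays for each diet. The arrays are grouped by their titles. For every sample 3 fields (title, source name and description) give that diet, while 1 field, the diet characteristic, gives the opposite. Had the characteristic been followed, each direction below would turn.

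The receptors differ in the G protein they use. GLP-1, GIP and glucagon receptors couple to Gs, which raises cyclic AMP and strengthens glucose-stimulated insulin secretion. The muscarinic receptor encoded by Chrm3 couples to Gq, which releases calcium from internal stores when parasympathetic nerves release acetylcholine. The adrenergic, somatostatin and galanin receptors couple to Gi and Go, which lower cyclic AMP and damp secretion.

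Values are MAS5 signals, a linear scale on which each array has the same trimmed mean. Median signals lay between 150.9 and 173.2 on the 10 arrays. The hormone genes that define islet cells, Ins1, Ins2, Gcg, Sst and Ppy, had mean log2 values from 14.08 (Ins2) to 14.89 (Gcg) on standard arrays, and differed by 0.16 (Ins1) to 0.23 (Gcg). Marker lists of β-, α- and δ-cells, which include all of these hormone genes but Ppy, went either way. In them 5 of 8 β-cell, 5 of 7 α-cell and 2 of 5 δ-cell markers were higher. The 3 lower β-cell markers were Glp1r, the β-cell factor Pdx1 (−0.21, SE 0.080) and Nkx6-1 (−0.15, SE 0.082), while Ins1 and Ins2 were among the 5 higher. Arrays are named below by diet and replicate number. Differences are cafeteria minus standard on the scale log2(signal + 14.15), tested with limma over 18625 probesets with Benjamini-Hochberg adjustment. No probeset on the array passed an adjusted p of 0.05 (0% of those tested), while 1941 (10.4%) had an unadjusted p under 0.05. Of the probesets described here, 9 were bright enough to be tested, and 0 of them passed after adjustment. Unadjusted p was under 0.05 for 3 probesets, Gipr and Chrm3 on the higher side and Glp1r on the lower side. Across the array 5.51% of probesets were higher and 4.91% lower at that level.

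Gipr, the receptor for the gut hormone GIP, was higher on every cafeteria array than on any standard array. Its signals were 2047, 1926, 2054, 2165 and 1891 on standard arrays 1 to 5, and 2933, 2482, 2603, 2348 and 3297 on cafeteria arrays 1 to 5. The groups did not overlap, a separation in this direction that 0.988% of tested probesets showed (2.44% in either direction), and it was the sole receptor probeset whose groups separated. The means were 2017 ± 110.1 (SD, n = 5) and 2732 ± 382.6 (SD, n = 5). The difference was 0.43 (SE 0.10), a 1.34-fold higher level with a 95% interval from 1.15-fold to 1.57-fold. Its p ranked 49 of 18625, and limma's adjusted p was 0.398. In bulk islet RNA a change in the number of cells that carry a receptor cannot be told apart from a change in RNA per cell.

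**Figure D1:**
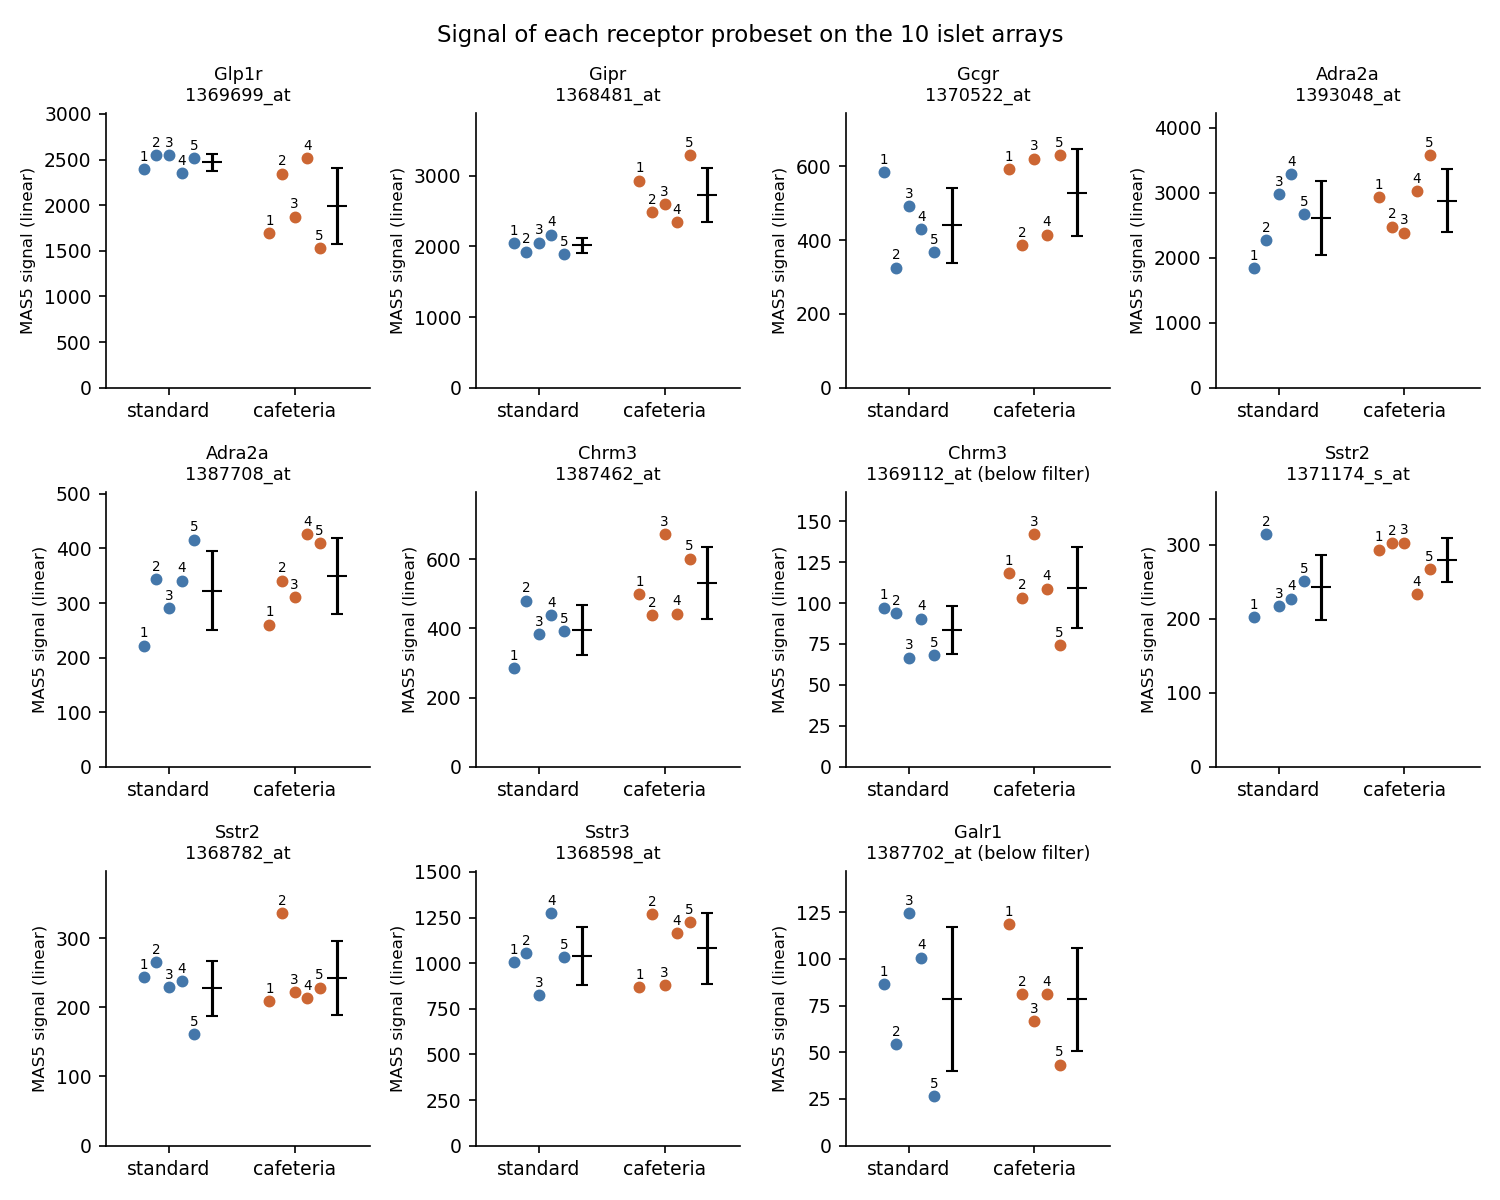
MAS5 signal (linear, each axis from 0) of the 11 receptor probesets on the standard and cafeteria arrays; points are arrays labelled by replicate number, and bars show the mean ± SD of 5. All 5 cafeteria arrays lie above all 5 standard arrays for Gipr, while the other probesets overlap between diets.

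Glp1r, the receptor for GLP-1 and the target of incretin drugs, leaned the other way. Standard arrays 1 to 5 read 2396, 2551, 2548, 2350 and 2516, and cafeteria arrays 1 to 5 read 1694, 2343, 1875, 2512 and 1532. The standard arrays were close together, whereas 4 of 5 cafeteria arrays fell below the lowest standard array and cafeteria array 4 sat among them. The means were 2472 ± 92.8 (SD, n = 5) and 1991 ± 420.8 (SD, n = 5). The difference was −0.33 (SE 0.131), a 1.26-fold lower level with an interval from 1.03-fold to 1.54-fold (limma's adjusted p = 0.439). Leaving out cafeteria array 1, 3 or 5 took its unadjusted p above 0.05, up to 0.0661 without array 1.

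The bases just before the Glp1r start site are shown because Glp1r is the incretin receptor in this set whose promoter the RefSeq table for GRCr8 holds. The window is chr20:8973143-8973392 on the plus strand, and capitals mark the GC box, a binding motif of Sp-family factors.
Glp1r: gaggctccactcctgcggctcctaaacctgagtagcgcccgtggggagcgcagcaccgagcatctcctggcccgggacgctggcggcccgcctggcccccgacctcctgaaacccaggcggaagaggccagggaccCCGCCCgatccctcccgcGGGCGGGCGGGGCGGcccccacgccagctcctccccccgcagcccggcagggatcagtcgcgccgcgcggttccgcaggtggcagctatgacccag
The motif was searched as GGGCGG and its reverse CCGCCC, and neighbouring matches may share bases. The window held 4 matches and was 75.6% G or C, against a median of 51.6% over 33360 distinct promoter windows of the same length. At least 1 GC box occurred in 30.5% of those windows and in 5 of the 8 windows of the receptor genes, where Gcgr has 2. A match describes the letters, and no reading here bears on whether a factor binds there.

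The levels of the incretin receptors differed between diets in opposite directions. The log2 value of Gipr minus that of Glp1r was −0.29 ± 0.12 (SD, n = 5) on standard arrays and 0.47 ± 0.49 (SD, n = 5) on cafeteria arrays. Standard arrays ran from −0.41 to −0.12 and cafeteria arrays from −0.097 to 1.10, so the groups did not overlap, although the gap between them was small beside the spread of the cafeteria arrays. This quantity compares diets and does not say which receptor is more abundant, since probesets differ in brightness. The difference between diets was 0.76, a 1.69-fold shift of the ratio. An exact two-sided permutation test gave p = 0.00794, the smallest that 252 divisions of 10 arrays allow. The Gipr difference was known from earlier results of these arrays when this pair was chosen, so that p is not independent evidence.

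The opposition also held among arrays of the same diet. On the cafeteria arrays, Gipr fell in the order 5, 1, 3, 2, 4 and Glp1r rose in exactly that order. After each diet's mean was subtracted, Glp1r and Gipr had Pearson's r = −0.92 and Spearman's rho = −0.89 over 10 arrays. With arrays permuted within diets, the exact permutation p for r was 0.0034, and 0.0953 after adjustment over the 28 pairs of the 8 genes, so it did not pass. Without the 2 arrays farthest from the median of Glp1r, r was −0.78. It was −0.95 among cafeteria arrays and −0.74 among standard arrays, with 5 arrays in each.

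**Figure D2:**
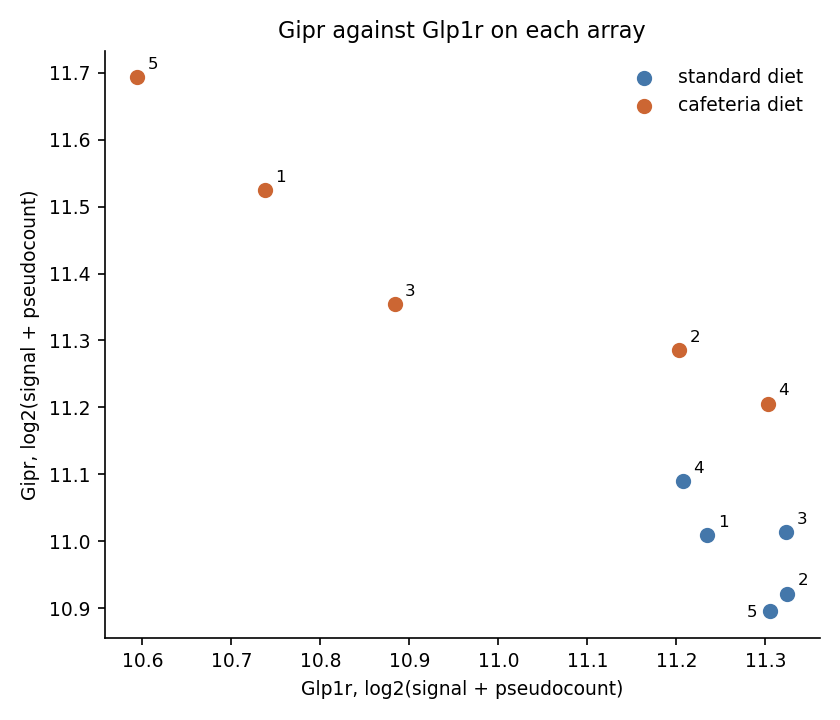
Gipr (vertical axis) against Glp1r (horizontal axis), both as log2(signal + pseudocount), for each array labelled by replicate number. The cafeteria arrays run from array 4, near the standard arrays, to array 5, where Gipr is highest and Glp1r lowest.

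Among whole-array values, an RNA quality ratio followed this order in part, and the β-cell and acinar marker means given below did not. The ratio of 3 prime to 5 prime signal of the GAPDH control, which rises as RNA degrades, was 1.11 on cafeteria array 5, 1.01 on array 1 and 0.964 to 0.977 on the other 3. It averaged 1.16 on standard arrays and 1.01 on cafeteria arrays (log2 difference −0.21, exact permutation p = 0.0238, and p = 0.0556 to 0.0635 without standard array 1, 3, 4 or 5). On standard arrays the ratio ran from 1.00 to 1.26. With that ratio, which itself differed between diets, as a covariate, the Gipr minus Glp1r difference was 1.13 (SE 0.254). In the same fit Gipr differed by 0.60 (SE 0.127) and Glp1r by −0.53 (SE 0.176). The mean log2 value of 8 β-cell markers differed by 0.0047 between diets (exact permutation p = 0.897), and by −0.038 to 0.040 with an array left out. Glp1r itself (−0.33) is among those markers, so this mean is not independent of the Glp1r reading. Of 12 acinar markers, from the enzyme cells around the islets, 10 were lower in the cafeteria group, by −0.46 on average (exact permutation p = 0.333), with array means from 9.61 to 10.80 on standard and 8.48 to 10.65 on cafeteria arrays. That difference was −0.18 without cafeteria array 3, −0.28 without standard array 5 and −0.72 without cafeteria array 4. The β-cell mean was 13.08 on cafeteria array 1 and 13.39 on array 5, the 2 arrays with the highest Gipr. With a β-cell index without Glp1r as a covariate, an alternative added after seeing the data, the Gipr minus Glp1r difference was 0.67.

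Gcgr, the glucagon receptor, by which β-cells sense neighbouring α-cells, was higher on 3 cafeteria arrays than on any standard array, but the groups overlapped. Standard arrays 1 to 5 read 584.4, 325.3, 491.5, 429.3 and 368.0, and cafeteria arrays 1 to 5 read 591.2, 386.7, 620.5, 414.2 and 630.7. The 3 high cafeteria arrays, 1, 3 and 5, were those with the lowest Glp1r. The difference was 0.26 (SE 0.186), with a 95% interval from −0.15 to 0.67 (limma's adjusted p = 0.624). It was 0.16 without standard array 2 and 0.36 without standard array 1, and 0.43 with the immune index as a covariate. Fitted with the GAPDH ratio it was 0.71, with an unadjusted limma p of 0.00399 and an adjusted p of 0.365. That fit was the sole 1 of 25 alternatives in which Gcgr had an unadjusted limma p under 0.05. Within diets, Gcgr had r = −0.71 and rho = −0.75 with Glp1r (exact permutation p = 0.0244, adjusted p = 0.341). Without the 2 arrays farthest from the median of Glp1r that r was −0.66. With Gipr, Gcgr had r = 0.66 and rho = 0.70 (exact permutation p = 0.0517, adjusted p = 0.482), and r = 0.60 without the 2 farthest arrays.

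Chrm3, the muscarinic M3 receptor that carries the vagal signal to β-cells, read higher on the cafeteria diet from both of its probesets. The brighter probeset gave 285.7, 480.0, 382.8, 439.0 and 391.1 on standard arrays 1 to 5 and 498.3, 437.5, 673.3, 442.9 and 601.2 on cafeteria arrays 1 to 5. On 3 cafeteria arrays it exceeded the highest standard array, and cafeteria arrays 2 and 4 lay within the standard range. The means were 395.7 ± 72.9 and 530.6 ± 103.4 (SD, n = 5 each). The difference was 0.41 (SE 0.157), a 1.33-fold higher level with an interval from 1.05-fold to 1.69-fold (limma's adjusted p = 0.436). Its unadjusted p rose above 0.05 without standard array 1 or cafeteria array 3 or 5, up to 0.0618 without cafeteria array 3. The dimmer probeset was below the filter on low signals and was not tested. It read 83.3 ± 14.7 on standard arrays and 109.4 ± 24.7 on cafeteria arrays (SD, n = 5 each), a difference of 0.33. The log2 values of the 2 probesets had r = 0.39 over the 10 arrays, which share the diet groups. Within a diet the probesets ordered some arrays differently. Standard array 1 was lowest of its diet on the brighter probeset and highest on the dimmer (97.3). Cafeteria array 5 was lowest of its diet on the dimmer probeset (74.1), within the standard range, whereas cafeteria array 3 was highest on both. Fitted with the GAPDH ratio as a covariate, Chrm3 differed by 0.24 (limma's unadjusted p = 0.303, adjusted p = 0.723). With the mean of the acinar markers as a covariate it differed by 0.34 (limma's unadjusted p = 0.0614, adjusted p = 0.444).

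Of the receptors that restrain secretion, none of those tested had an unadjusted p under 0.05 with all arrays kept. Adra2a, the α2A-adrenergic receptor through which noradrenaline blocks insulin release, read 1836, 2273, 2972, 3286 and 2670 on standard arrays 1 to 5 from its brighter probeset. Cafeteria arrays 1 to 5 read 2925, 2476, 2382, 3021 and 3579. Both groups covered much the same range, with the lowest value on standard array 1. The difference was 0.15 (SE 0.165), with an interval from −0.21 to 0.52. It was 0.036 without standard array 1, 0.24 without standard array 4, 0.072 without cafeteria array 5 and 0.29 with the GAPDH covariate. The dimmer probeset differed by 0.12 (SE 0.173), and the 2 probesets had r = 0.57 over the 10 arrays.

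Sstr3, a somatostatin receptor found on β-cells and on primary cilia, had means of 1039 ± 160.5 on standard arrays and 1081 ± 193.4 on cafeteria arrays (SD, n = 5 each). Standard arrays 1 to 5 read 1005, 1054, 825.3, 1276 and 1033, and cafeteria arrays 1 to 5 read 867.6, 1270, 878.3, 1164 and 1224. The cafeteria values lay entirely within the standard range. The difference was 0.051 (SE 0.144), with an interval from −0.26 to 0.37, and its sign depended on the arrays kept.

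Sstr2, the somatostatin receptor that acts in α-cells and also in β-cells, was read by 2 probesets. The brighter, of a type that can match more than 1 transcript, gave 202.4, 314.6, 217.1, 227.0 and 251.1 on standard arrays 1 to 5. Cafeteria arrays 1 to 5 gave 293.5, 302.2, 302.8, 233.0 and 266.9. The highest reading was standard array 2, and all cafeteria arrays lay below it. The difference was 0.20 (SE 0.122), with an interval from −0.063 to 0.47. Without standard array 2 it was 0.30 (limma's unadjusted p = 0.0162, adjusted p = 0.379). Fitted to all arrays with the GAPDH ratio it turned to −0.053. The other probeset differed by 0.079 (SE 0.154), and the probesets had r = 0.27 over 10 arrays.

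The Sstr2 promoter is shown because it is the sole window among those of the receptor genes that holds a full cyclic AMP response element, the site through which CREB acts when Gs receptors raise cyclic AMP. It lies at chr10:99163103-99163352 on the plus strand of GRCr8 in the RefSeq table, with the element in capitals.
Sstr2: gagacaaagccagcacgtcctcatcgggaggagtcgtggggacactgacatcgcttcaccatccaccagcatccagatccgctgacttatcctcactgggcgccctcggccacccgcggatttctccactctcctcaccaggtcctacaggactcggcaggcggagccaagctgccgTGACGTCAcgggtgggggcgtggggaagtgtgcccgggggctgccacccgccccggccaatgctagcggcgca
The element TGACGTCA reads the same on both strands and occurred in 1.59% of the 33360 windows. It begins 73 bases before the start site. The match is a description of the sequence. With all arrays kept, the Sstr2 readings above did not differ between diets beyond their spread.

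Galr1, a receptor for the nerve peptide galanin, was dim. It read 86.4, 54.5, 124.6, 100.6 and 26.5 on standard arrays 1 to 5 and 118.7, 81.2, 66.8, 81.2 and 43.4 on cafeteria arrays 1 to 5. The groups overlapped almost fully, with means of 78.5 ± 38.6 and 78.2 ± 27.4 (SD, n = 5 each). It lay below the filter on low signals, and the table gave no detection call by which to tell such readings from background.

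**Figure D3:**
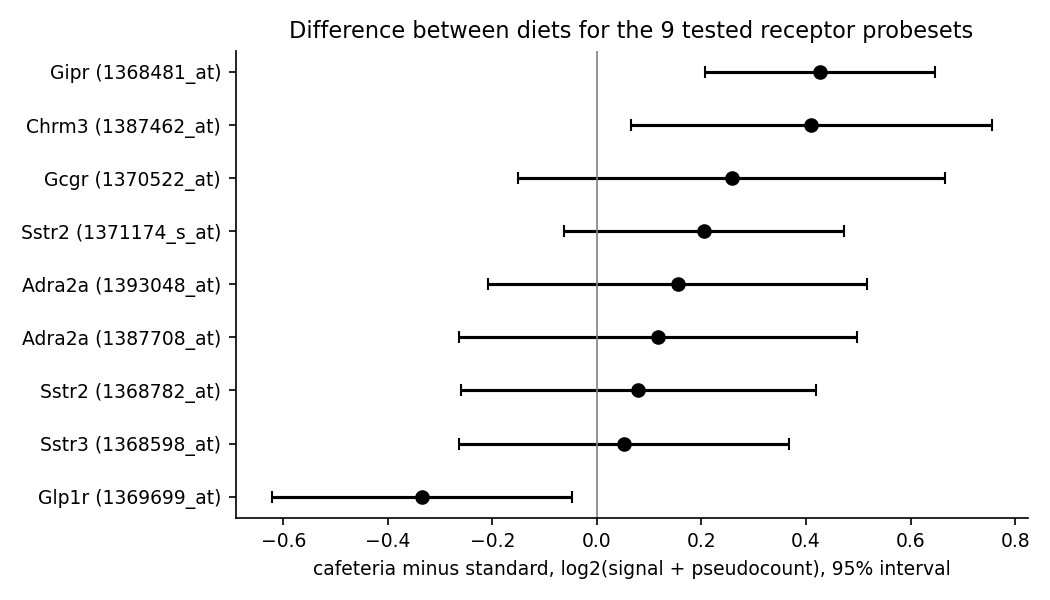
Cafeteria minus standard difference on the log2(signal + pseudocount) scale for the 9 tested receptor probesets; points are limma estimates and bars 95% intervals, not adjusted for the number of tests. The intervals of Gipr and the brighter Chrm3 probeset lie above 0 and that of Glp1r below it, while the other 6 cross 0.

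Genes named alongside each receptor had the deviations from the diet means most like it over the 10 arrays, among 10300 other genes. Glp1r was most like Gid4 (r = 0.94) and Usp32 (r = 0.93), and Gipr most like Bnip2 (r = 0.93) and Ufsp1 (r = 0.92). Gcgr was most like Trip6 (r = 0.97) and Pik3c2b (r = 0.95), and Sstr3 most like Ddx41 (r = 0.97) and Bccip (r = 0.97). Adra2a was most like Trak1 (r = 0.95) and Pin4 (r = 0.92), Chrm3 most like Wdcp (r = 0.97) and Wrap53 (r = 0.89), and Sstr2 most like Pla2g12a (r = 0.91) and Zfyve1 (r = 0.90). These are the highest of many values over few arrays and are given as descriptions.

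Genes around the receptors are given from lists of ligands, other receptors and signalling proteins, 1 probeset (the brightest) for each gene. None of their genes passed limma's adjusted test. Over all 10301 tested genes, an unadjusted p under 0.05 was reached by 518 on the higher and 541 on the lower side (10.3% in all), with a median difference of −0.0045. Of the receptors described here, 7 genes were tested, 6 were higher and 1 lower, with a median of 0.20. Among 16 other tested islet receptor genes 6 were higher and 10 lower, with a median of −0.047, and 0 had an unadjusted p under 0.05. The lowest p values there belonged to the vasopressin receptor gene Avpr1b (0.32, SE 0.177), the VIP and PACAP receptor gene Vipr2 (−0.18, SE 0.10) and the dopamine receptor gene Drd2 (−0.59, SE 0.340).

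Of 9 tested genes for ligands and their processing, 6 were higher, and 3 of those had p under 0.05 before adjustment. They were Gcg, the precursor of glucagon and GLP-1 (0.23, SE 0.098), the prohormone convertase gene Pcsk2 (0.19, SE 0.084) and Sst, the ligand of Sstr2 and Sstr3 (0.21, SE 0.095). All 5 cafeteria arrays lay above all standard arrays for Pcsk2 (as for 0.988% of tested probesets) and not for the other 2. The mean log2 values of 7 α-cell and 5 δ-cell markers differed by 0.10 and 0.044 (exact permutation p = 0.54 and 0.722). The α-cell value was −0.014 without standard array 5 and up to 0.20 without standard array 4. The δ-cell value ranged from −0.024 without cafeteria array 1 to 0.11 without cafeteria array 5, and was −0.0048 without standard array 5.

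In the Gs and cyclic AMP arm, downstream of Glp1r, Gipr and Gcgr, 19 of 33 tested genes were higher and 14 lower, with a median of 0.015. At an unadjusted p under 0.05, 3 were lower: Rapgef4, the cyclic AMP sensor Epac2 (−0.27, SE 0.070), Prkar2a, a regulatory subunit of protein kinase A (−0.25, SE 0.080), and the transcription factor gene Atf1 (−0.19, SE 0.069). The groups did not overlap for Rapgef4 and Prkar2a, a separation in that direction that 1.45% of tested probesets showed. The adenylyl cyclase gene Adcy9 (0.55, SE 0.192) and the CREB coactivator gene Crtc2 (0.50, SE 0.185) were higher. The limma adjusted p of these 5 genes lay between 0.398 and 0.422.

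In the Gi and Go arm, 9 of 16 tested genes were higher and 7 lower, with a median of 0.038. Kcnj3 and Kcnj5, potassium channel subunits opened by Gβγ, differed in opposite directions, by −0.44 (SE 0.145) and 0.40 (SE 0.151), and Gng7, a Gγ subunit, by 0.65 (SE 0.155). In the Gq and phospholipase C arm, downstream of Chrm3, 6 of 17 were higher and 11 lower, with a median of −0.061. Dgka, which removes diacylglycerol, had the lowest p (−0.38, SE 0.155), followed by the protein kinase C gene Prkcd (−0.32, SE 0.158) and the phospholipase C gene Plcb3 (−0.18, SE 0.094).

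Among genes that end or modify receptor signals, 6 of 19 tested were higher and 13 lower, with a median of −0.13. Ramp3, an accessory protein of receptors of the calcitonin family, differed by 0.49 (SE 0.146) and Rgs9 by 0.25 (SE 0.084). All cafeteria arrays lay above all standard arrays for both (0.988% of tested probesets) and below them for Rgs17 (1.45%). The other RGS genes past an unadjusted p of 0.05, which speed the shut-off of G proteins, were Rgs10 (−0.58, SE 0.192), Rgs17 (−0.22, SE 0.074) and Rgs1 (−0.93, SE 0.384). Leukocytes also express Rgs1 and Rgs10, and all 14 tested immune markers were lower in the cafeteria group. The mean of those markers ran from 7.89 to 9.58 on standard arrays and from 7.78 to 9.47 on cafeteria arrays (difference −0.66, exact permutation p = 0.167, and −0.96 with p = 0.0476, adjusted p = 0.429, without cafeteria array 3). Its part in these values was not tested. With the immune index as a covariate Gipr differed by 0.42 and Glp1r by −0.37.

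**Figure D4:**
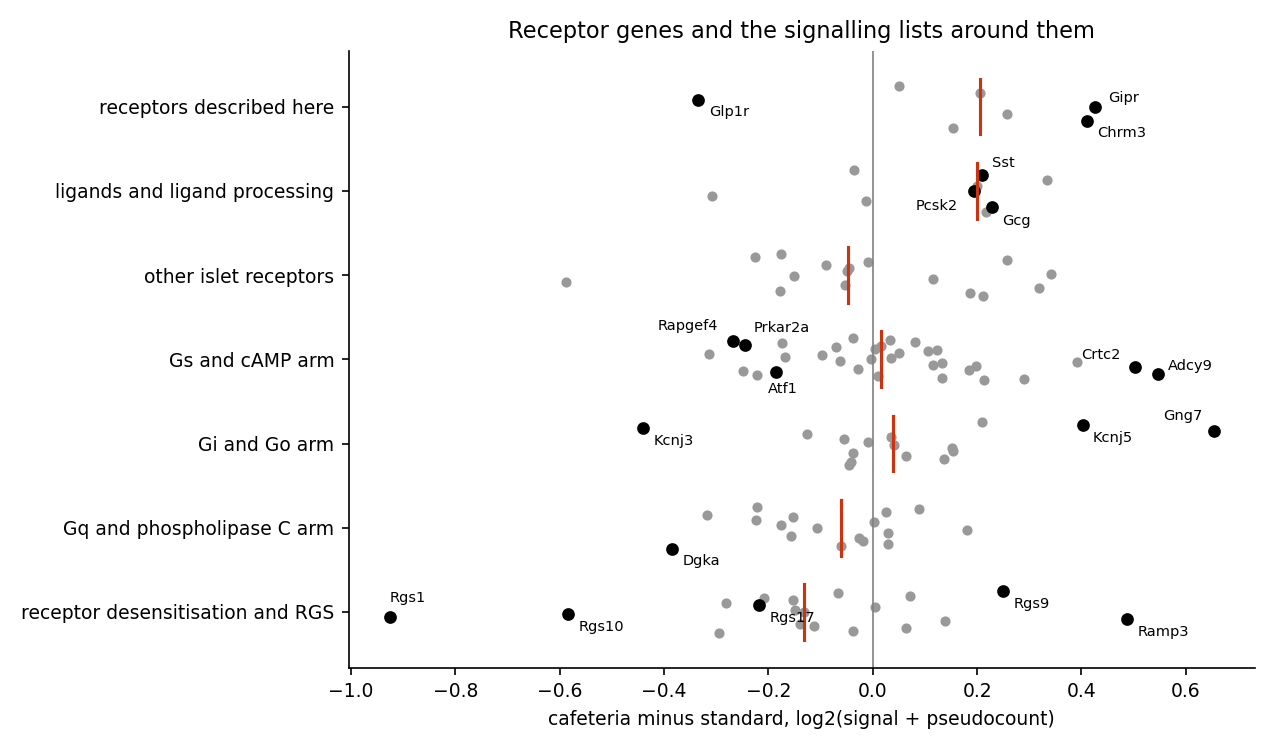
Cafeteria minus standard difference, log2(signal + pseudocount), of each tested gene in the receptor set and in 6 surrounding lists; black named points have an unadjusted limma p under 0.05, grey points do not, and red lines mark list medians. The receptor and ligand lists have medians of 0.20, and the list of desensitisation and RGS genes has a median of −0.13.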

How the data were processed

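Per the labels' protocols, biotinylated cRNA was hybridised to 1-colour GeneChip Rat Genome 230 2.0 arrays. Intensity values were deposited on a linear scale, made with MAS5 (version not given) per the submitters' processing notes. The trimmed mean (2% cut at each end) was 500.1 to 500.2 on every array, and pairs of arrays had r of 0.955 to 0.982. No detection calls were used here. Genome build is not given in the sources used here.

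Symbols came from the platform annotation. Values were taken as log2(value + 14.15), the pseudocount being the 10th percentile, and probesets above the 40th percentile of mean log2 value (18625 of 31042) were tested. Limma 3.58.1 (R 4.3.3) compared 5 cafeteria with 5 standard arrays, with 8 residual and 3.11 prior degrees of freedom, after being tested on simulated data. Single values used exact two-sided permutation tests. A gene is named from its brightest probeset. Named genes were all receptors, the hormone genes, the 3 genes of lowest p in each ligand, receptor or signalling list, and the 2 most similar genes per receptor. Atf1, Crtc2, Emp1, Pdx1, Rgs1 and Rgs17 were added once their values were known. The receptors and lists were chosen with earlier results of these data known. Promoters came from RefSeq (GRCr8), which held windows for 7 of the 8 genes, without Gipr. Alternatives covered pseudocount, filter, normalization, variance, covariates, replicate block, probeset choice and each array left out.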

Additional observations from a re-analysis of the deposited data

Results flagged for a closer look

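Of 44 sets of 5 arrays (each probeset, marker index and ratio within a diet), Dixon's criterion marked 3. Chance marks about 1 set in 20, or 2.2 here. The second Sstr2 probeset was highest on cafeteria array 2, at a log2 value of 8.45 against 7.80 to 7.92 on the others. The immune index was highest on cafeteria array 3, at 9.47 against 7.78 to 8.24. The endothelial index was highest on standard array 5, at 10.33 against 9.97 to 10.03.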

How the results depend on the processing

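The receptor values were recomputed under 25 alternatives, including 10 without 1 array each. Gipr, Glp1r, Gcgr, Adra2a and Chrm3 kept their direction wherever they were tested, and no receptor passed limma's adjusted threshold in any setting. Gipr ranged from 0.36 to 0.60 and had an unadjusted p under 0.05 in all 25, Glp1r ranged from −0.53 to −0.25 and did so in 20, and Chrm3 ranged from 0.24 to 0.48 and did so in 19 of 24. For Gcgr this held in 1 of 25, for Sstr2 in 1 of 24, and for Adra2a and Sstr3 in 0 of 25. Sstr3 turned to −0.045 with the immune index as a covariate, and ranged from −0.027 to 0.13 with an array left out. Sstr2 turned to −0.053 when fitted with the GAPDH ratio. The cause was not tested. The count of probesets past the threshold was 0 to 1 with an array left out, the 1 being Emp1 without standard array 2 (0.73, adjusted p = 0.0386), and 0 elsewhere. The Gipr minus Glp1r difference ranged from 0.60 to 1.13 and stayed past the threshold, by limma in the 7 settings that change the model and by the exact test in the others. Median centring, both filters and both probeset choices leave this difference and its exact p as they are. Those 5 of the 25 therefore say nothing of its stability. The variance alternative and the replicate block also leave it at 0.76 and change only its limma p. The pair was chosen with the Gipr difference known, so none of its p values over the settings is independent evidence. Deviations of same-numbered arrays had r from −0.0017 to 0.30, and whether replicate numbers pair the arrays was not tested. With the replicate block 0 probesets passed adjustment, as in the main fit. Unadjusted limma p was under 0.05 for 2349 probesets with the block and 1941 without it. The GAPDH log2 difference was −0.26 to −0.17 with an array left out, and missed the threshold without standard array 1, 3, 4 or 5. No marker index passed adjustment (lowest adjusted p 0.75, and 0.286 to 0.884 with an array left out). The number of arrays limits the precision, and dim probesets (Galr1, the second Chrm3 probeset) are noisy.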

Other observations

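Glp1r varied more among arrays of the cafeteria diet than among arrays of the standard diet, with coefficients of variation of 21.1% and 3.76% (5 arrays each). For Gipr they were 14.0% and 5.46%. For Gcgr (22.4% and 23.3%), Sstr3 (17.9% and 15.5%) and the brighter Adra2a probeset (16.7% and 21.9%) the spread differed less. For the brighter Sstr2 probeset (10.7% and 18.2%) and for the dim Galr1 it was smaller on the cafeteria diet. The other Sstr2 probeset went the opposite way (22.1% and 17.3%). For Chrm3 the values were 19.5% and 18.4% (brighter probeset) and 22.6% and 17.7% (dimmer probeset). The difference in spread was not tested.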
